A study of Mus musculus with 13 samples.

Results

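CCN proteins are secreted proteins of the extracellular matrix, and YAP and TAZ are the coactivators at the end of the Hippo pathway. The 10 genes described here are the CCN genes Ctgf, Cyr61, Nov, Wisp1 and Wisp2, the YAP target and feedback genes Ankrd1, Amotl2 and Lats2, and the coactivator genes Yap1 and Wwtr1 (TAZ). They were chosen by symbol from the 23418 genes of a count table of bulk RNA sequencing, and all 10 passed the filter on low counts that kept 15412 genes. The series compared FAPs of muscle and lung to find transcripts that promote the differentiation of muscle stem cells. Its libraries are 4 of FAPs from skeletal muscle (replicates 2 to 5), 5 of FAPs from lung (replicates 1 to 5) and 4 of MEFs (replicates 1 to 4), all from mouse. FAP commonly stands for fibro/adipogenic progenitor, a mesenchymal cell that can form fibroblasts and fat, while MEF stands for embryonic fibroblast of the mouse. The labels give only these abbreviations and, for FAPs, the tissue. They name no genotype, strain, age or treatment, and how the cells were sorted, pooled or cultured is not given in the sources used here. Nothing says that the replicates came from separate animals or cultures, so p-values measure the spread between these libraries, which may be technical.

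The libraries held 41327292 to 44699463 counts for muscle FAPs, 28636183 to 35464622 for lung FAPs and 33756915 to 41466585 for MEFs. Levels are CPM, counts scaled to the size of each library (counts per 1000000) and adjusted by TMM, with the mean ± SD over n = 4 muscle FAP, n = 5 lung FAP and n = 4 MEF libraries. Pdgfra, the receptor gene that defines FAPs, stood at 1270 to 1487 CPM in muscle FAPs, 776 to 846 CPM in lung FAPs and 23.0 to 34.7 CPM in MEFs. Not all of the 6 progenitor surface genes examined shared this order. Mean Pi16 was higher in lung FAPs (3228 CPM) than in muscle FAPs (1182 CPM). Cd34 (1641 and 1625 CPM) and Ly6a (854 and 775 CPM) were similar in lung and muscle FAPs, and Thy1 was lower in lung FAPs (73.3 CPM) than in MEFs (193 CPM). The lung FAP libraries were the least even. Lung FAP 2 held the most endothelial RNA (12 markers summing to 1115 CPM, against 253 to 446 CPM in the other lung FAP libraries) and lung FAP 3 the most of lung epithelium (12 markers summing to 8831 CPM, against 46.8 to 144 CPM). The 12 blood cell markers found summed to 147 to 544 CPM in MEFs, 41.0 to 699 CPM in lung FAPs (highest in lung FAP 3) and 6.31 to 8.58 CPM in muscle FAPs. Lyz2 alone made up most of the sum of lung FAP 3, at 615 CPM (median of lung FAPs 7.16 CPM). Ptprc reached at most 20.2 CPM in lung FAPs. In MEFs Lyz2 ranged from 67.6 to 322 CPM. In bulk samples, fewer cells of a type and less RNA per cell cannot be told apart.

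In the Hippo pathway, the kinases MST1 and MST2 activate LATS1 and LATS2, which phosphorylate YAP and TAZ and keep them out of the nucleus. YAP and TAZ that escape this step bind TEAD factors on DNA and switch on targets such as Ctgf, Cyr61, Ankrd1 and Amotl2, and they respond to cell spreading and tension on the actin cytoskeleton. Lats2 and Amotl2 restrain YAP and are themselves targets, which closes a feedback loop. CCN proteins bind integrins, heparan sulphate proteoglycans and growth factors, and in fibroblasts they are known for roles in matrix deposition, wound repair and fibrosis. The transcript levels below are of RNA, and the location and phosphorylation of YAP and TAZ were not measured.

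RefSeq promoter windows (250 bases upstream of a RefSeq transcript start, GRCm38.p6, the build of mm10) were found for 6 of the 10 genes: Cyr61, Ankrd1, Amotl2, Lats2, Yap1 and Wwtr1. They were searched on both strands for the TEAD motif GGAATG. The motif occurred in the windows of 5 of the 6 genes, all but Lats2, while 12.6% of all 32851 windows held it. The 6 genes have 8 windows, as Lats2 and Wwtr1 have more than 1 each, so genes and windows are unlike units. Whether the motif is more frequent in these genes was not tested. The window of Cyr61, on the minus strand at chr3:145649986-145650235, is shown whole because Cyr61 had, on average and per length, the most abundant CCN transcript in both kinds of FAP. It lies just upstream of the gene in GENCODE M21 too. The capitals mark the TEAD motif, here as its reverse complement, which begins 103 bases upstream of the start.
Cyr61: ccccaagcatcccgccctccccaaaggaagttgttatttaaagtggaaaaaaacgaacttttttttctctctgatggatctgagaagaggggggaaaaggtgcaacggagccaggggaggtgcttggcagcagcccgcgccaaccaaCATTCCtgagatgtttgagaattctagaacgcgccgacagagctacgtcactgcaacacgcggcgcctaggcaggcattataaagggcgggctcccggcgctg
The matches of the other 4 genes are shown as 26 bases each, with the motif again in capitals (as its reverse complement in Amotl2), to set the targets beside the coactivators themselves. The Ankrd1 matches, at chr19:36120039-36120064 and chr19:36119952-36119977 on the minus strand, begin 210 and 123 bases upstream of the RefSeq start. The Amotl2 match is at chr9:102717729-102717754 on the plus strand. GENCODE M21 starts both of these genes farther upstream, so these sites lie within its gene spans. The Yap1 match is at chr9:8004722-8004747 and the Wwtr1 match at chr3:57576031-57576056, both on the minus strand and outside the GENCODE gene.
Ankrd1, first match: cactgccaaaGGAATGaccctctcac
Ankrd1, second match: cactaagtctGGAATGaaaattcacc
Amotl2: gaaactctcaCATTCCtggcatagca
Yap1: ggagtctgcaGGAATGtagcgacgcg
Wwtr1: taaactcaaaGGAATGcagataggcg
Ankrd1 was the one gene of the 6 with 2 matches. The AP-1 motif TGANTCA (the same on both strands, 6.75% of all windows) and the CArG box of serum response factor (1.47% of all windows), also searched on both strands, were in none of the windows of the 6 genes. A match here is a description of the letters, not a bound site.

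The 10 genes split into 3 patterns across the groups. Ctgf, Wisp1, Ankrd1, Amotl2 and Lats2 had their highest mean in MEFs. Cyr61, Nov, Wwtr1 and Yap1 had theirs in muscle FAPs, and Wisp2 in lung FAPs. Of the 10 genes, 6 were called higher and 2 lower in muscle than in lung FAPs by edgeR's quasi-likelihood test at a Benjamini-Hochberg adjusted p under 0.05, where 23.2% of all genes tested were called higher and 25.0% lower. Against MEFs, muscle FAPs had 4 of the genes called higher and 5 lower, against 36.1% and 37.3% of all genes. Lung FAPs had 2 called higher and 6 lower than in MEFs, against 37.8% and 36.6% of all genes. Without lung FAP 2 and 3 the counts in both comparisons with lung FAPs were again 6 and 2, and 2 and 6. The median log2 fold changes of the 10 genes were 0.50, -0.20 and -0.63 in these comparisons, and those of all genes were -0.04, -0.04 and 0.02. Each group takes part in 2 of the comparisons, so these are not independent of each other. Scaling by library size alone moved the median of all genes by -0.41 in muscle FAPs against lung FAPs and by -0.58 in muscle FAPs against MEFs, so all fold changes are relative to the TMM scale.

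**Figure D1:**
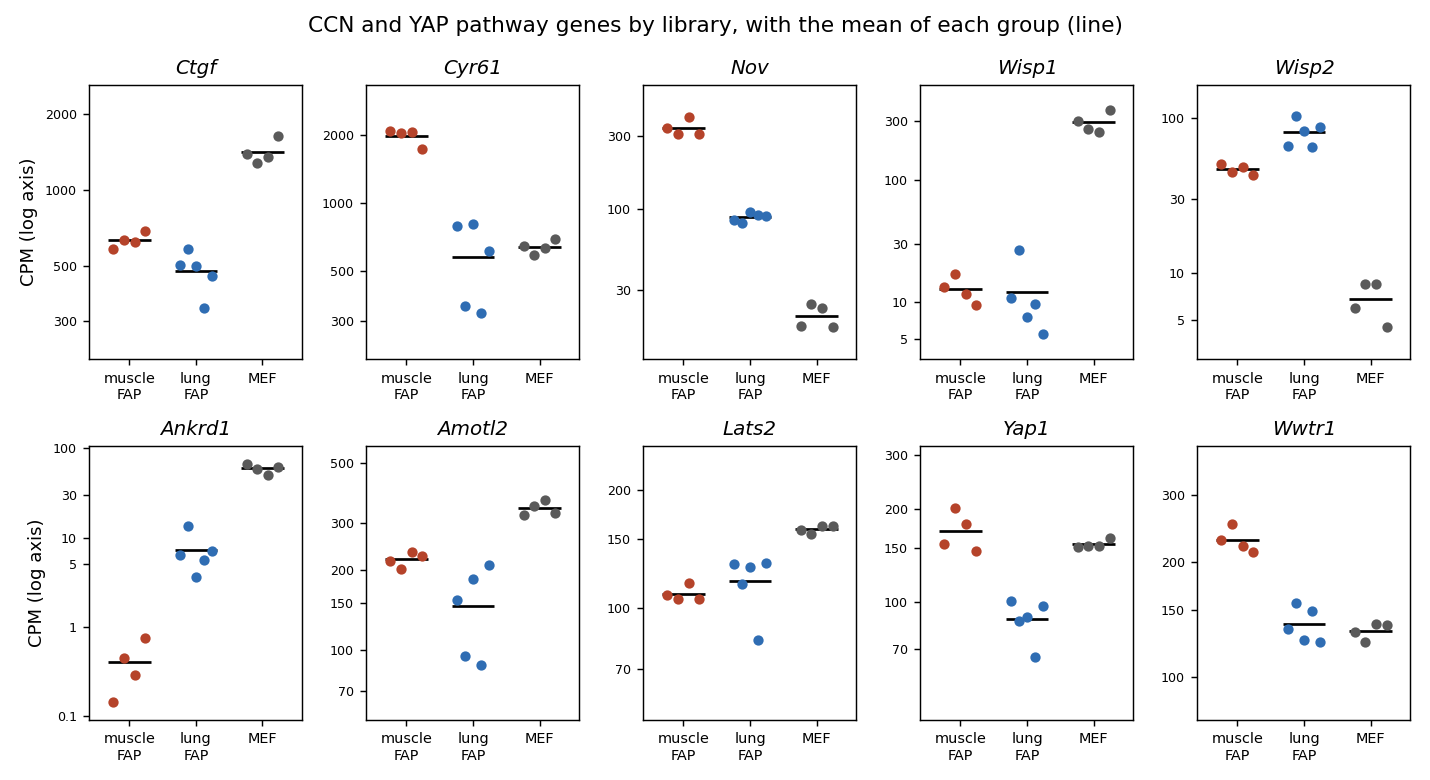
CPM on a log axis of each of the 10 genes in every muscle FAP, lung FAP and MEF library (points, in the order of replicate numbers), with the mean of each group as a line. Cyr61 and Nov are highest in the 4 muscle FAP libraries, Ctgf, Wisp1 and Ankrd1 are highest in the 4 MEF libraries, and Cyr61 and Amotl2 are low in lung FAP 2 and 4.

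Ctgf (Ccn2, chr10:24595442-24598683, plus strand, mm10) codes for a CCN protein induced by TGF-beta and known as a mediator of fibrosis. It stood at 1398, 1283, 1355 and 1639 CPM in MEF 1 to 4, at 583, 633, 623 and 685 CPM in muscle FAP 2 to 5, and at 505, 581, 497, 339 and 454 CPM in lung FAP 1 to 5. No libraries of the 3 groups overlapped, although the highest lung FAP library nearly reached the lowest of muscle FAP. Ctgf was 2.25-fold lower in muscle FAPs than in MEFs (log2 fold change -1.17, SE 0.09, adjusted p = 4.38e-06). In lung FAPs it was 2.99-fold lower than in MEFs (-1.58, SE 0.15, adjusted p = 7.34e-08). The step between the FAPs was small, with 631 ± 42.0 CPM in muscle and 475 ± 88.7 CPM in lung (log2 fold change 0.41, SE 0.14, adjusted p = 0.0254). This call was lost with upper-quartile scaling (adjusted p = 0.0547), and at library size alone the log2 fold change was -0.0033. It was also lost without muscle FAP 3, 4 or 5 (adjusted p 0.0523 to 0.0655). In GENCODE M21, 665 bases of the exons of Ctgf overlap Gm15270 on the opposite strand, and reads of the pair cannot be told apart without strand.

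Cyr61 (Ccn1, chr3:145646976-145649981, minus strand) codes for a CCN protein that acts on cell adhesion and migration and is also known as an immediate-early gene, one switched on within minutes of a stimulus. Its levels were 2091, 2048, 2062 and 1741 CPM in muscle FAP 2 to 5, 794, 349, 803, 324 and 609.6 CPM in lung FAP 1 to 5, and 645, 585, 629.7 and 695 CPM in MEF 1 to 4. The muscle FAP libraries stood above all others, and the lung FAP libraries lay on both sides of the MEFs. Against lung FAPs, Cyr61 was 3.45-fold higher in muscle FAPs (log2 fold change 1.79, SE 0.29, adjusted p = 2.58e-05), while against MEFs it was 3.11-fold higher (1.64, SE 0.08, adjusted p = 3.68e-05). Lung FAPs and MEFs did not differ beyond their spread (log2 fold change -0.15, SE 0.29, adjusted p = 0.581). Thus the most abundant CCN transcript of the FAPs did not follow Ctgf, the other classical YAP target of the family.

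Nov (Ccn3, chr15:54745702-54754039, plus strand) codes for a CCN protein that is often reported to oppose the matrix-inducing action of Ctgf. It stood at 338, 309.6, 399 and 307 CPM in muscle FAP 2 to 5, at 86.1, 81.1, 95.9, 91.9 and 90.5 CPM in lung FAP 1 to 5, and at 17.5, 24.4, 23.0 and 17.3 CPM in MEF 1 to 4. The groups were fully separate and each step was large against the spread. Nov in muscle FAPs was 3.80-fold above lung FAPs (log2 fold change 1.92, SE 0.10, adjusted p = 1.41e-08) and was 16.5-fold above MEFs (4.04, SE 0.16, adjusted p = 2.58e-12). Lung FAPs were 4.33-fold above MEFs (log2 fold change 2.12, SE 0.14, adjusted p = 8.83e-10). The calls held under every alternative tried.

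Wisp1 (Ccn4, chr15:66891320-66923201, plus strand) is a target of WNT signalling through beta-catenin. It was a transcript of MEFs in these data, with 304, 259.5, 245 and 371 CPM in MEF 1 to 4. Muscle FAP 2 to 5 had 13.2, 17.2, 11.7 and 9.46 CPM, and lung FAP 1 to 5 had 10.8, 26.8, 7.63, 9.64 and 5.51 CPM. It was 22.9-fold lower in muscle FAPs than in MEFs (log2 fold change -4.52, SE 0.22, adjusted p = 7.23e-07) and, in lung FAPs, 24.4-fold lower (-4.61, SE 0.40, adjusted p = 2.25e-07). The 2 kinds of FAP overlapped and were not called different (log2 fold change 0.09, SE 0.42, adjusted p = 0.863). Without lung FAP 2, Wisp1 was called higher in muscle FAPs (log2 fold change 0.63, adjusted p = 0.0261), and without lung FAP 2 and 3 it was not (0.57, adjusted p = 0.0658). In lung FAP 2 the endothelial gene Pecam1 was also highest, with 131 CPM against 4.44 to 41.2 CPM in the other lung FAP libraries. The 10 markers of pericytes and smooth muscle summed there to 2269.6 CPM, against 365 to 1402 CPM in the other 4, and the part of these cells in the Wisp1 value was not tested.

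Wisp2 (Ccn5, chr2:163820861-163833146, plus strand) codes for the CCN protein that lacks the C-terminal domain of the others, and it is known in adipose precursors. It was the one gene of the 10 highest in lung FAPs, with 66.7, 103, 83.0, 65.2 and 88.0 CPM in lung FAP 1 to 5. Muscle FAP 2 to 5 had 50.8, 45.1, 48.5 and 43.0 CPM, and MEF 1 to 4 had 5.94, 8.47, 8.50 and 4.45 CPM. The groups did not overlap. Wisp2 was 1.73-fold lower in muscle than in lung FAPs (log2 fold change -0.79, SE 0.14, adjusted p = 0.00199). MEFs lay 6.85-fold below muscle FAPs (2.78, SE 0.23, adjusted p = 7.77e-09) and 11.9-fold below lung FAPs (3.57, SE 0.26, adjusted p = 4.74e-10). Wisp3, the sixth CCN gene, was close to absent, with at most 30 reads in any library.

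To compare the CCN genes with each other, CPM were divided by the exon length of each gene in GENCODE M21 (CPM per kilobase). The 5 genes summed to 1348 ± 78.7 CPM per kilobase in muscle FAPs, 876 ± 83.3 in MEFs and 527 ± 126 in lung FAPs. On this scale Ctgf made up 56.6% ± 0.80 of the sum in MEFs, 32.4% ± 7.05 in lung FAPs and 16.4% ± 2.07 in muscle FAPs. Cyr61 made up 36.2% ± 1.04, 52.6% ± 10.5 and 72.8% ± 2.11. The share of Nov went from 0.83% ± 0.21 in MEFs to 6.21% ± 1.78 in lung FAPs and 8.74% ± 0.84 in muscle FAPs. Wisp1 held 6.01% ± 0.64 in MEFs and less than Wisp2 in both FAPs, where Wisp2 held 8.39% ± 2.43 (lung) and 1.81% ± 0.08 (muscle). The makeup of the CCN transcripts thus ran from mostly Ctgf in MEFs to mostly Cyr61 in muscle FAPs.

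**Figure D2:**
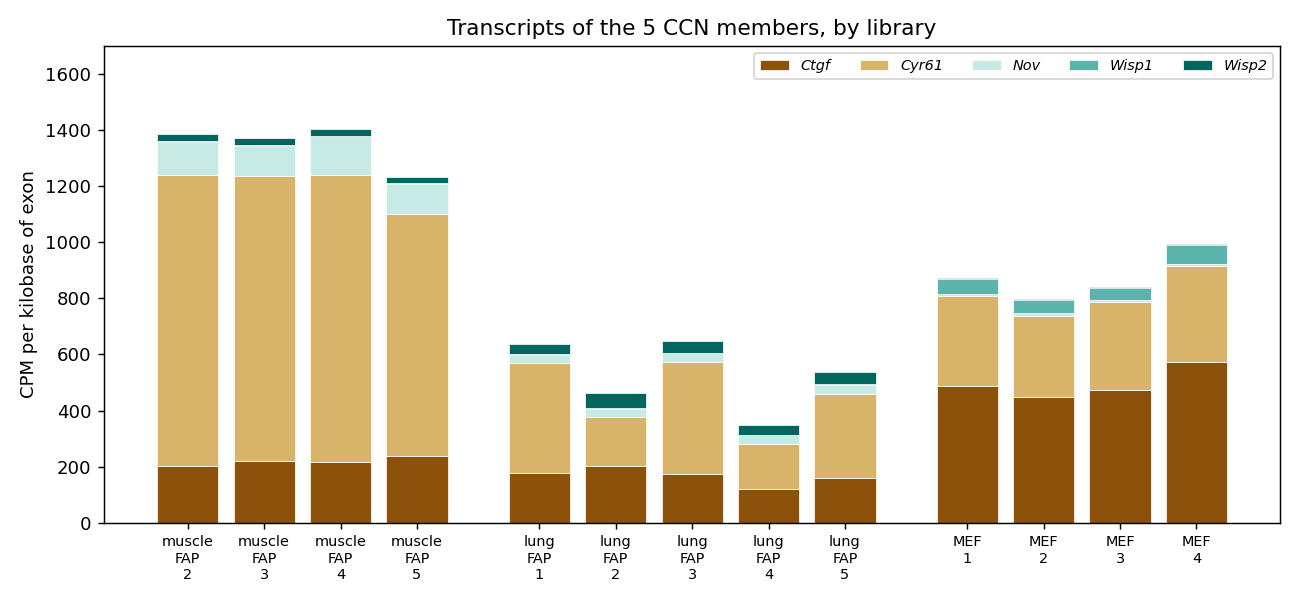
CPM per kilobase of exon of the 5 CCN genes, stacked, with 1 bar for each library of muscle FAPs, lung FAPs and MEFs. Cyr61 fills most of each muscle FAP bar, Ctgf is the largest part of each MEF bar, and the bars of lung FAP 2 and 4 are the lowest.

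The log2 ratio of Ctgf to Cyr61 within a library, which does not depend on scaling between libraries, was -1.84, -1.69, -1.73 and -1.35 in muscle FAP 2 to 5 and 1.11, 1.13, 1.11 and 1.24 in MEF 1 to 4. In lung FAP 1 to 5 it was -0.65, 0.74, -0.69, 0.07 and -0.43. The 3 groups did not overlap, with lung FAPs in between. The differences were -2.80 between muscle FAPs and MEFs (exact two-sided permutation p = 0.0286, adjusted over 6 ratio tests p = 0.0343), -1.46 between muscle and lung FAPs (exact p = 0.0159, adjusted p = 0.0317) and -1.34 between lung FAPs and MEFs (exact p = 0.0159, adjusted p = 0.0317). These are the smallest p-values that 4 against 4 and 4 against 5 libraries can give.

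Ankrd1 (chr19:36111961-36120099, minus strand) codes for an ankyrin repeat protein of muscle and of cells under strain and is among the most widely used readouts of YAP. It had 66.9, 58.6, 50.05 and 62.2 CPM in MEF 1 to 4 and 6.36, 13.6, 3.58, 5.58 and 7.01 CPM in lung FAP 1 to 5. In muscle FAP 2 to 5 it had 0.146, 0.444, 0.288 and 0.748 CPM, from 5, 15, 10 and 25 reads. The 3 groups were separate, and muscle FAPs were almost without this transcript. It was 146-fold lower in muscle FAPs than in MEFs (log2 fold change -7.19, SE 0.43, adjusted p = 7.72e-09), 17.8-fold lower in muscle than in lung FAPs (-4.15, SE 0.53, adjusted p = 5.04e-06) and 8.21-fold lower in lung FAPs than in MEFs (-3.04, SE 0.32, adjusted p = 1.49e-06). Lung FAP 2, which was highest for Wisp1, was highest for Ankrd1 too.

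Amotl2 (chr9:102716672-102733418, plus strand) codes for an angiomotin-like protein that holds YAP at cell junctions. Its levels were 319, 346, 364 and 326 CPM in MEF 1 to 4, 216, 200.2, 234 and 225 CPM in muscle FAP 2 to 5, and 154, 95.3, 185, 87.6 and 208 CPM in lung FAP 1 to 5. MEFs stood above both FAPs, and the FAPs overlapped because lung FAP 5 reached the muscle range. Amotl2 was lower than in MEFs in muscle FAPs (log2 fold change -0.63, SE 0.06, adjusted p = 0.0184) and in lung FAPs (-1.21, SE 0.26, adjusted p = 9.25e-05). These p-values rest on a spread estimated over all groups, including the more variable lung FAPs, while each SE uses only the groups compared. Amotl2 was called higher in muscle than in lung FAPs (0.58, SE 0.26, adjusted p = 0.0322). That call was lost without lung FAP 2 (adjusted p = 0.0518), without muscle FAP 2, 4 or 5 (0.0578 to 0.0780) and at library size alone (0.422). The call against MEFs in muscle FAPs was lost when MEF 2 and 4 were left out (adjusted p = 0.0588).

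Lats2 (chr14:57689662-57758388, minus strand), the gene of a kinase that inactivates YAP, varied little. It had 158, 154, 162 and 162 CPM in MEF 1 to 4, 129.7, 115, 127, 83.4 and 131 CPM in lung FAP 1 to 5, and 108, 106, 116 and 105 CPM in muscle FAP 2 to 5. MEFs lay above all FAP libraries, by 1.46-fold against muscle (log2 fold change -0.55, SE 0.04, adjusted p = 8.50e-04) and by 1.36-fold against lung (-0.44, SE 0.12, adjusted p = 0.00279). The FAPs overlapped (-0.11, SE 0.13, adjusted p = 0.470). Without lung FAP 4, the lowest library, Lats2 was called lower in muscle FAPs (-0.20, adjusted p = 0.0445), as at library size alone (-0.51, adjusted p = 0.00131). Exons of Lats2 share 2955 bases with Gm49361 on the same strand.

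Yap1 (chr9:7931999-8004596, minus strand) stood at 155, 202, 179 and 147 CPM in muscle FAP 2 to 5, at 151, 152, 151 and 161 CPM in MEF 1 to 4, and at 101, 86.2, 88.9, 65.8 and 96.9 CPM in lung FAP 1 to 5. The lung FAP libraries were the lowest, and muscle FAPs and MEFs overlapped. Yap1 in lung FAPs was 1.94-fold below muscle FAPs (muscle against lung, log2 fold change 0.96, SE 0.15, adjusted p = 1.62e-05) and was 1.75-fold below MEFs (-0.81, SE 0.11, adjusted p = 2.37e-05). Between muscle FAPs and MEFs the log2 fold change was 0.15 (SE 0.11, adjusted p = 0.317). That value passed in limma-voom (0.21, adjusted p = 0.0430) and passed with the opposite sign at library size alone (-0.43, adjusted p = 0.00492). Exons of Yap1 share 116 bases with Gm20416 on the opposite strand.

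Wwtr1 (chr3:57455649-57575910, minus strand), the gene of TAZ, had 229, 252, 221 and 213 CPM in muscle FAP 2 to 5, 134, 156, 125, 149 and 124 CPM in lung FAP 1 to 5, and 131, 124, 137 and 137 CPM in MEF 1 to 4. Here it was the muscle FAPs that stood alone. Wwtr1 was 1.66-fold higher in muscle than in lung FAPs (log2 fold change 0.73, SE 0.08, adjusted p = 1.51e-05) and stood 1.73-fold above MEFs (0.79, SE 0.06, adjusted p = 3.60e-06), although the latter call was lost at library size alone (0.21, adjusted p = 0.103). Lung FAPs and MEFs overlapped (0.05, SE 0.08, adjusted p = 0.610), and the sign of this small value changed with the setting.

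The balance of the coactivators was tested as the log2 ratio of Yap1 to Wwtr1 within a library. It was 0.20, 0.29, 0.14 and 0.23 in MEF 1 to 4, -0.57, -0.32, -0.31 and -0.54 in muscle FAP 2 to 5, and -0.41, -0.86, -0.49, -1.17 and -0.35 in lung FAP 1 to 5. Every MEF library lay above every FAP library, and the FAPs overlapped. The difference was -0.65 between muscle FAPs and MEFs (exact two-sided permutation p = 0.0286, adjusted p = 0.0343) and -0.87 between lung FAPs and MEFs (exact p = 0.0159, adjusted p = 0.0317). It was 0.22 between muscle and lung FAPs (exact p = 0.302, adjusted p = 0.302). Per kilobase of exon, Wwtr1 was the more abundant of the coactivator transcripts in all 3 groups, with 47.9 ± 3.55 against 18.4 ± 2.69 CPM per kilobase for Yap1 in muscle FAPs, 28.8 ± 2.999 against 9.47 ± 1.46 in lung FAPs and 27.7 ± 1.35 against 16.6 ± 0.56 in MEFs.

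Set side by side, the coactivator genes and their targets were not all ordered alike. Muscle FAPs had the highest Wwtr1 and, of both FAPs, the higher Yap1, and also the highest Cyr61, but the lowest Ankrd1 of all groups. Against lung FAPs, Ctgf and Amotl2 were also called higher in muscle FAPs (log2 fold changes 0.41 and 0.58), though both calls were lost under some alternatives. Lats2 was not called, and Ankrd1, with 55 reads in muscle FAPs, was the only one of these targets called lower there. Lung FAPs and MEFs had Wwtr1 and Cyr61 at levels that did not differ beyond their spread. Yap1, Ctgf, Ankrd1, Amotl2 and Lats2 were all called higher in MEFs, so Yap1 went the way of most of the targets in this comparison.

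**Figure D3:**
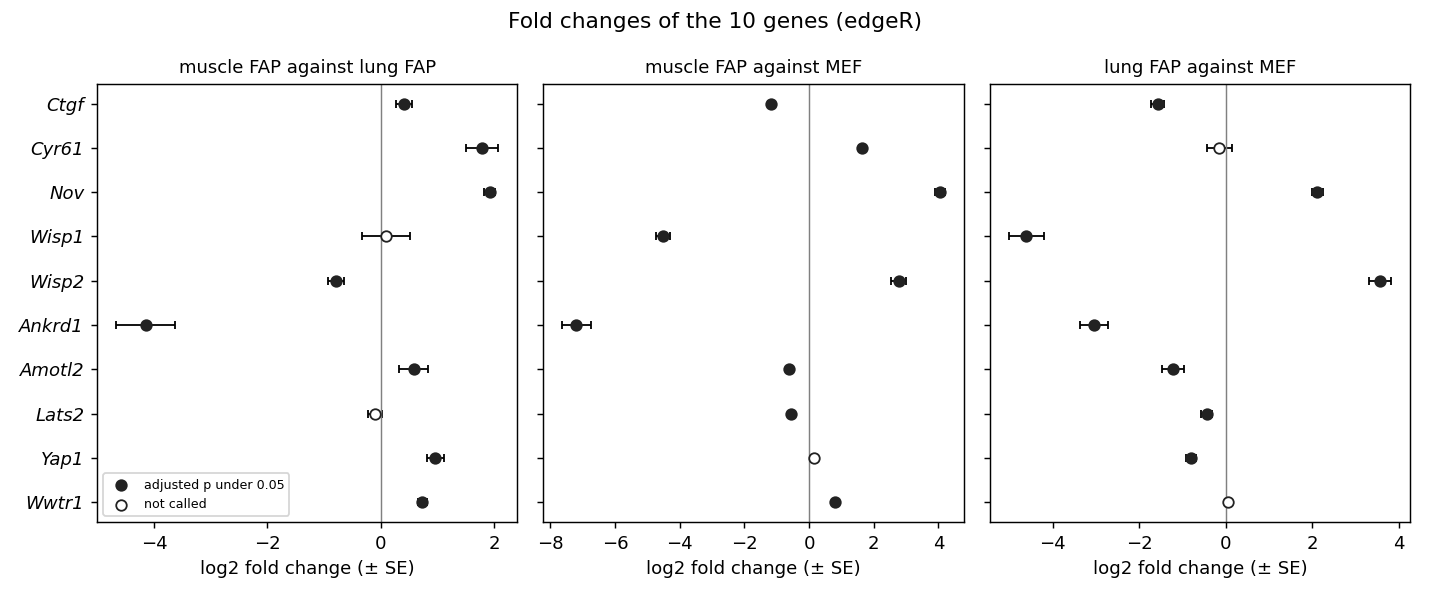
Log2 fold change (point) and SE (bar) of the 10 genes in each pair of groups (first against second, as each panel is headed), with filled points for adjusted p under 0.05. Each SE uses only the groups compared, while the p-values come from the fit of all groups. The targets Cyr61 and Ankrd1 lie on opposite sides of 0 in both comparisons of muscle FAPs, at 1.79 and -4.15 against lung FAPs and at 1.64 and -7.19 against MEFs. Ctgf and Amotl2 lie with Cyr61 above 0 against lung FAPs and with Ankrd1 below 0 against MEFs.

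The spread among lung FAPs was shared by some of the genes. Cyr61 was lowest in lung FAP 2 and 4 (349 and 324 CPM), at 609.6 to 803 CPM in lung FAP 1, 3 and 5, and Amotl2 was lowest in the same 2 libraries (95.3 and 87.6 CPM, against 154 to 208 CPM). The 16 immediate-early genes examined, which include Fos and Egr1 and are known to rise during tissue dissociation, summed to 8886 CPM (lung FAP 2) and 11027 CPM (lung FAP 4), against 17986 to 23736 CPM in lung FAP 1, 3 and 5. Egr1 alone was at 808 and 998 CPM in those libraries and at 2141 to 2842 CPM in the others. In muscle FAPs the immediate-early sum was 18269 to 23498 CPM, and in MEFs it was 855 to 1200 CPM, with Cyr61 at 585 to 695 CPM. Whether the immediate-early response has a part in the Cyr61 and Amotl2 levels was not tested. Cyr61 was higher in muscle than in lung FAPs with any 1 library left out.

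**Figure D4:**
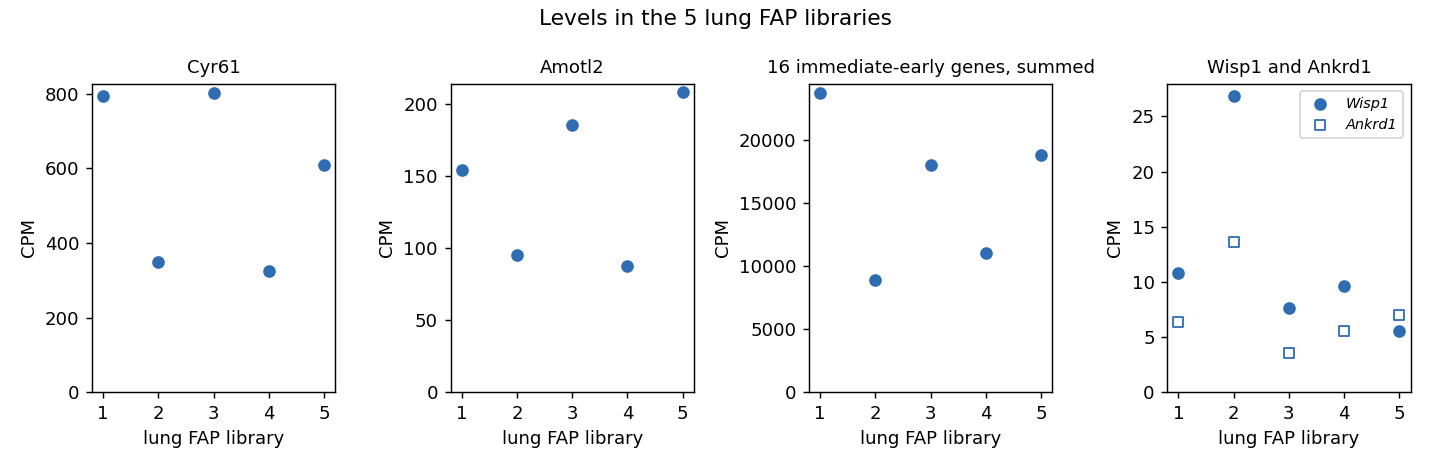
CPM (from 0) of Cyr61, of Amotl2, of the sum of 16 immediate-early genes, and of Wisp1 (filled) and Ankrd1 (open) in lung FAP 1 to 5. Lung FAP 2 and 4 are the lowest for Cyr61, Amotl2 and the immediate-early sum, and lung FAP 2 is the highest for Wisp1 (26.8 CPM) and Ankrd1 (13.6 CPM).

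Upstream of YAP, the 24 genes of the Hippo cascade and its regulators were called in both directions between the FAPs: 11 were higher in muscle than in lung (23.2% of all genes were), 4 lower (25.0% of all genes) and 9 were not called (median log2 fold change 0.20). Amot and Amotl1, the angiomotins related to Amotl2, were both higher in muscle FAPs. Amot had 20.4 ± 5.91 CPM against 6.85 ± 1.37 CPM (log2 fold change 1.57, adjusted p = 6.69e-06). Amotl1 had 217 ± 28.5 CPM against 99.4 ± 15.5 CPM (1.13, adjusted p = 4.52e-06). Ajuba, a LIM protein that inhibits LATS kinases, was lower, with 3.12 ± 0.50 CPM in muscle and 11.9 ± 10.3 CPM in lung FAPs (-1.93, adjusted p = 0.00412). Its relatives in the list did not share this direction. Limd1 was higher in muscle (127 ± 11.3 against 71.7 ± 8.14 CPM, 0.82, adjusted p = 9.74e-06), and Wtip was not called (30.8 ± 2.71 against 30.9 ± 4.14 CPM). Ajuba was far higher in MEFs (167 ± 19.5 CPM) than in muscle FAPs (log2 fold change -5.74, adjusted p = 5.85e-07) or lung FAPs (-3.81, adjusted p = 4.39e-06). Against MEFs, 7 of the 24 genes were called higher and 7 lower in muscle FAPs (median -0.01), and 4 higher and 11 lower in lung FAPs (median -0.07). All genes were called higher and lower at 36.1% and 37.3% in muscle FAPs against MEFs and at 37.8% and 36.6% in lung FAPs against MEFs, so the muscle FAP counts of this list were no larger than those shares. Wwc1, the gene of the LATS activator KIBRA, was lower in muscle FAPs (30 reads) than in MEFs (log2 fold change -5.95, adjusted p = 1.07e-04), and Amot was lower in lung FAPs than in MEFs (-4.24, adjusted p = 4.33e-11).

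Of the TEAD and VGLL genes, whose proteins are the DNA-binding partners of YAP and their competitors, 6 of 7 were tested. Between the FAPs, 2 were called higher in muscle, 1 lower and 3 were not called (median log2 fold change -0.14), where all genes had 23.2% and 25.0%. Tead1 had 98.1 ± 21.3 CPM in muscle FAPs and 55.8 ± 14.1 CPM in lung FAPs, with some overlap of the libraries (log2 fold change 0.81, adjusted p = 0.00263). Vgll4 had 28.9 ± 3.74 and 18.9 ± 2.46 CPM (0.61, adjusted p = 7.14e-04). Tead2 was lower, at 6.49 ± 2.07 against 21.6 ± 4.08 CPM (-1.74, adjusted p = 5.50e-06). Of the same genes, 4 of 6 were called lower in muscle FAPs than in MEFs and 1 higher (median -1.42), and 4 were lower and 0 higher in lung FAPs (median -1.26), where 37.3% and 36.6% of all genes were lower. Tead1 reached 223 ± 27.3 CPM in MEFs (lung FAPs against MEFs, log2 fold change -1.996, adjusted p = 2.07e-07). Tead4 reached 10.6 ± 1.98 CPM in MEFs against 0.702 ± 0.616 CPM in muscle FAPs (-3.91, adjusted p = 2.00e-05) and 1.06 ± 0.618 CPM in lung FAPs (-3.32, adjusted p = 2.97e-05). Tead2 was also lower in muscle FAPs than in MEFs (-2.69, adjusted p = 1.71e-08).

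Of the other 17 genes reported as YAP or TAZ targets, 7 were called higher and 5 lower in muscle than in lung FAPs (median log2 fold change 0.16), 8 higher and 9 lower in muscle FAPs than in MEFs (median -0.44), and 6 higher and 8 lower in lung FAPs than in MEFs (median -0.09). All genes had 23.2% and 25.0%, 36.1% and 37.3%, and 37.8% and 36.6% in these comparisons, and several of the counts of this list lie near those shares. Gadd45a, a growth arrest gene, had 90.3 ± 6.21 CPM in muscle and 16.03 ± 2.18 CPM in lung FAPs (log2 fold change 2.49, adjusted p = 4.41e-09). Foxf2, a forkhead factor gene, was lower in muscle, at 0.887 ± 0.160 against 13.03 ± 6.70 CPM (-3.87, adjusted p = 4.12e-07). Dock5, a guanine nucleotide exchange factor gene, was lower in muscle than in lung FAPs (-1.87, adjusted p = 1.68e-06), and lower than in MEFs in muscle (-4.46, adjusted p = 5.73e-11) and lung FAPs (-2.59, adjusted p = 3.46e-09). Ptpn14, the gene of a phosphatase that binds YAP, had 299.8 ± 28.0 CPM in MEFs, 15.4 ± 2.25 CPM in muscle FAPs and 32.9 ± 7.93 CPM in lung FAPs. It was lower than in MEFs in both FAPs (-4.28, adjusted p = 2.77e-11, and -3.19, adjusted p = 1.48e-10).

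Of 9 genes of receptors for CCN proteins, 5 were called higher in muscle than in lung FAPs, 0 lower and 4 were not called (median log2 fold change 0.52), beside 23.2% and 25.0% of all genes. Lrp1, an endocytic receptor, had 4477 ± 461 CPM in muscle and 1693 ± 851 CPM in lung FAPs (log2 fold change 1.403, adjusted p = 0.00396). The integrin genes Itgav (163 ± 23.2 against 83.6 ± 16.4 CPM, 0.96, adjusted p = 1.64e-04) and Itga5 (463 ± 37.5 against 247 ± 29.2 CPM, 0.90, adjusted p = 1.71e-05) were also higher. Against MEFs, 6 were called higher and 3 lower in muscle FAPs (median 0.96), and 4 higher and 3 lower in lung FAPs (median 0.18). The shares of all genes, 36.1% and 37.3%, and 37.8% and 36.6%, are close to most of these counts. Sdc4, a heparan sulphate proteoglycan gene, was at 392 ± 86.4 CPM in muscle and 421 ± 67.8 CPM in lung FAPs and at 46.9 ± 4.85 CPM in MEFs (log2 fold changes 3.06, adjusted p = 3.23e-10, and 3.17, adjusted p = 1.66e-10). Itga6 went the other way, with 66.3 ± 12.8 CPM in MEFs (-4.51, adjusted p = 3.12e-05, in muscle FAPs and -3.35, adjusted p = 1.03e-04, in lung FAPs).

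The 14 genes of actin and of serum response factor (SRF), the factor that reads actin polymerisation, were mostly lowest in muscle FAPs and highest in MEFs, the order seen for Ankrd1. Between the FAPs 12 were called lower in muscle and 1 higher (Mkl1, the SRF coactivator gene, named after its value was seen), with a median log2 fold change of -1.49, where 25.0% of all genes were lower and 23.2% higher. Actg2 (0.103 ± 0.051 CPM from 14 reads in muscle, 33.3 ± 24.7 CPM in lung), Cnn1 (0.264 ± 0.086 CPM from 36 reads and 39.5 ± 31.3 CPM) and Acta2 (5.32 ± 0.90 and 446 ± 296 CPM), contractile genes of smooth muscle and myofibroblasts, differed the most (-8.30, adjusted p = 7.76e-06, -7.21, adjusted p = 8.68e-06, and -6.39, adjusted p = 5.22e-07). Against MEFs 13 were called lower and 0 higher in muscle FAPs (median -2.30), and 11 lower and 1 higher in lung FAPs (median -1.21), where 37.3% and 36.6% of all genes were lower. Actg2 reached 112 ± 40.9 CPM in MEFs (-10.04 in muscle FAPs, adjusted p = 3.92e-07), and Acta2 reached 2499 ± 637 CPM in MEFs (-8.87 in muscle FAPs, adjusted p = 9.43e-09), and Tpm1 (-3.03, adjusted p = 1.96e-09) and Tagln (-2.51, adjusted p = 1.62e-04) led the difference of lung FAPs from MEFs. The 10 markers of pericytes and smooth muscle, which share Acta2 and Cnn1 with this list, summed to 104 to 110.3 CPM in muscle FAPs, 365 to 2269.6 CPM in lung FAPs and 2259 to 3883 CPM in MEFs. Acta2 alone made up 2499 CPM of the MEF sum. Of these 10 markers, 8 were called lower in muscle than in lung FAPs and 1 higher, where 25.0% and 23.2% of all genes were. Against MEFs, 5 were called higher and 2 lower in lung FAPs (median log2 fold change 0.45), where 37.8% and 36.6% of all genes were. In muscle FAPs 1 was called higher and 4 lower than in MEFs, where 36.1% and 37.3% of all genes were. Rgs5, a pericyte gene, was at 1.98, 2.06 and 3.73 CPM in muscle FAPs, lung FAPs and MEFs. Myh11, the myosin of smooth muscle, was at 4.12, 221 and 23.3 CPM. Their part in the Ankrd1 and actin values was not tested.

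**Figure D5:**
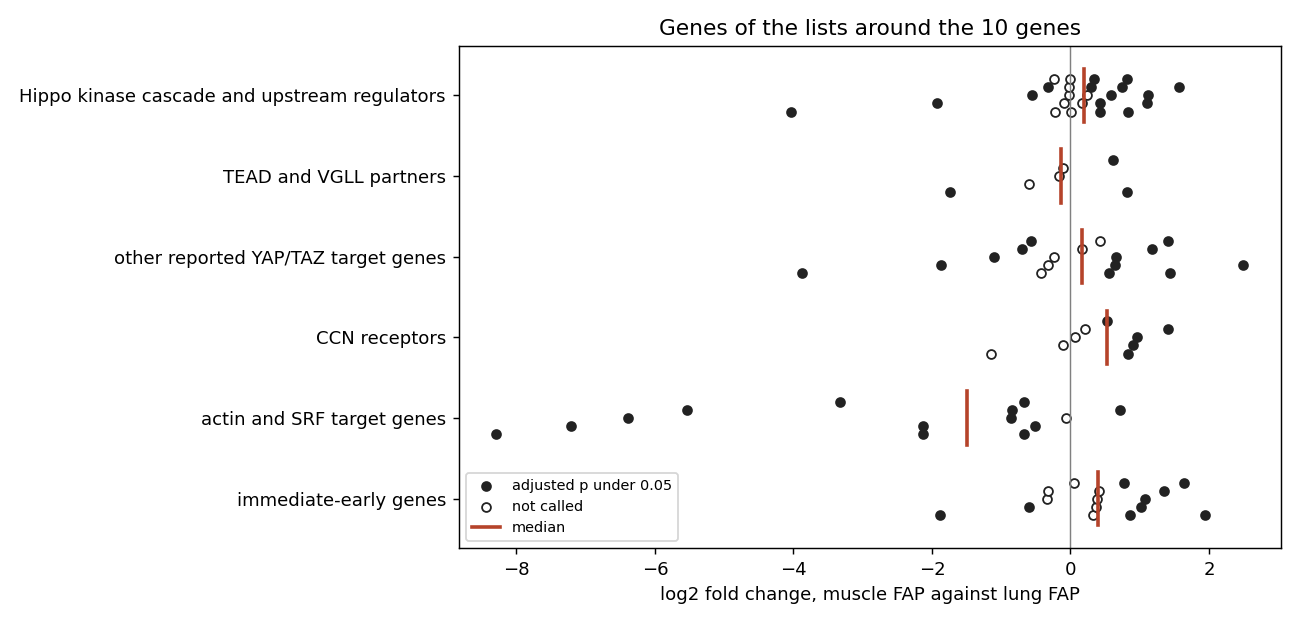
Log2 fold change of muscle FAP against lung FAP for each tested gene of 6 lists (points, filled where adjusted p is under 0.05, spread vertically for legibility), with the median of each list as a red line. The actin and SRF genes lie mostly below 0 (median -1.49), and the Hippo, TEAD and YAP target lists spread to both sides of 0.

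The immediate-early genes did not separate the FAPs in one direction: 7 of 16 were called higher in muscle than in lung and 2 lower (median log2 fold change 0.40), beside 23.2% and 25.0% of all genes. Egr1, a zinc finger factor gene, had 5796 ± 708 CPM in muscle and 1859 ± 909.7 CPM in lung FAPs (1.64, adjusted p = 0.00547), Fosl1 was higher (1.94, adjusted p = 3.34e-05) and Fosb lower (-1.88, adjusted p = 2.97e-04). Against MEFs all 16 were called higher in muscle FAPs (median 4.30) and 15 in lung FAPs, with 1 lower (median 4.08), where 36.1% and 37.8% of all genes were higher. In muscle FAPs Fosb was 75.5-fold above MEFs (adjusted p = 5.19e-09) and Egr1 68.1-fold (adjusted p = 2.21e-07). In lung FAPs Fosb was 277-fold (adjusted p = 6.26e-10) and Fos 46.2-fold (adjusted p = 1.01e-06) above MEFs.

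The genes with the most similar profile were taken as the highest Pearson correlations of log2 CPM over the 13 libraries, among the 8971 genes that averaged 10 CPM or more. The libraries fall into 3 groups, so these values mostly describe the group means. Ctgf was nearest to Tnc (r = 0.98), the matrix protein tenascin C, with Ston1 and Sept9. Cyr61 was nearest to Col5a1 (r = 0.98), a chain of fibrillar collagen, which had 3346 CPM in muscle FAPs, 1010.3 CPM in lung FAPs and 896 CPM in MEFs. D17Wsu92e and Agfg2 came next. Nov was nearest to Mylip, St3gal1 and Egfr (r = 0.99 each), with Egfr, the receptor of epidermal growth factor, at 903, 236 and 56.2 CPM in muscle FAPs, lung FAPs and MEFs. Wisp1 was nearest to Lrrfip1 (r = 0.995), Elk3 and Msn, and Wisp2 to Phactr1, Adh1 and Pla2r1 (r = 0.99 each). Adh1, an alcohol dehydrogenase gene, had 181, 468 and 1.80 CPM in muscle FAPs, lung FAPs and MEFs, the same order as Wisp2.

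Among the YAP genes, Ankrd1 was nearest to Plekho1 (r = 0.99), Ggta1 and Ywhah. Amotl2 was nearest to Eif4ebp2 (r = 0.98), Polr2a and Cad. Lats2 had the weakest nearest match, Phactr4 (r = 0.96), followed by Rreb1 and Zyx, the gene of the focal adhesion protein zyxin. Yap1 was nearest to Yy1 (r = 0.98), Ppard and Ppp2r2a, and Wwtr1 to Gna13 (r = 0.98), Tbc1d15 and Baz1a. No gene of the 10 was among the 3 nearest of another.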

How the data were processed

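RNA was measured in 13 libraries. The submitters' processing notes list Bowtie2 2.1.0.0, HTSeq and edgeR and the mm10 build. The authors deposited raw counts per gene, with 0 columns of other samples; which annotation and strand setting they used is not given in the sources used here. Groups came from the labels. Counts were filtered (filterByExpr), scaled (TMM) and tested in 1 fit of all libraries with edgeR 4.0.16 (R 4.3.3, quasi-likelihood, robust), called at a Benjamini-Hochberg adjusted p under 0.05. The code was tested on simulated data. SE values come from log2 CPM with a prior count of 2 in the groups compared. The p-values use a spread estimated over all groups, so SE and p-value of a comparison need not match. Ratios of genes were compared by exact permutation tests. Lengths and coordinates are from GENCODE M21 (5 genes matched by symbol, 5 by synonym) and promoters from RefSeq. Of the list genes, 2 (Muc16 and Adgre1) were not found in the table under those symbols.

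The 10 genes and the lists were chosen with earlier results of these data known. The text names all 10, and from each pathway list the 3 called genes (2 in comparisons with MEFs) of largest log2 fold change with at least 5 CPM in the higher group. The 3 most similar genes pass over predicted symbols. Other named genes are markers or were named after their values were seen.

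Tried in turn were other scalings (DESeq2 1.42.0 size factors, upper quartile, library size alone), no filter or one of 5 CPM in 4 libraries, the DESeq2 Wald test, limma-voom (limma 3.58.1), a fit of only the groups compared, a block for replicate number, a prior count of 0.5 for ratios, each library left out, and lung FAP 2 and 3 or MEF 2 and 4 left out.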

Additional observations from a re-analysis of the deposited data

Results flagged for a closer look

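A library standing apart from the rest of its group was looked for in 36 sets of values (each of the 10 genes and both ratios in each of the 3 groups), by comparing its gap to the next library with the range of the group. Chance alone gives such a gap in about 1 of 20 sets, and 3 were found. Cyr61 in muscle FAP 5 was at 1741 CPM, below the other muscle FAP libraries, with a gap of 0.88 of the range. It still stood above every lung FAP and MEF library. Wisp1 in lung FAP 2 was at 26.8 CPM, above the other lung FAP libraries, with a gap of 0.75 of the range. Yap1 in MEF 4 was at 161 CPM, above the other MEF libraries, with a gap of 0.92 of the range of a group that spans few CPM.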

How the results depend on the processing

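Of the fold changes of the 10 genes under the alternatives, 197 kept direction and call and 3 changed sign in lung FAPs against MEFs, 176 and 1 in muscle FAPs against MEFs (with 1 gained and 2 lost calls), and 170 and 5 in muscle against lung FAPs (with 3 gained and 12 lost calls). Library size alone gave 1730 higher and 7455 lower genes in muscle against lung FAPs, so 18.8% of called genes were higher, against 48.1% with TMM (31.7% against 49.2% for muscle FAPs against MEFs). It turned the sign of Ctgf (-0.0033) and Wisp1 (-0.36) between the FAPs, of Yap1 in muscle FAPs against MEFs (-0.43) and of Wwtr1 in lung FAPs against MEFs (-0.11). With each library left out, Wisp1 between the FAPs ranged from -0.086 to 0.63 and Wwtr1 in lung FAPs against MEFs from -0.024 to 0.093. The Ctgf to Cyr61 difference then ranged from -1.58 to -1.23 (muscle against lung FAPs), -2.90 to -2.74 (muscle FAPs against MEFs) and -1.57 to -1.22 (lung FAPs against MEFs), and the Yap1 to Wwtr1 difference from -0.69 to -0.61 (muscle FAPs against MEFs) and -0.95 to -0.75 (lung FAPs against MEFs). Their adjusted p reached 0.0686 there. Fewer libraries raise the smallest possible exact p, and the adjustment over the 6 ratio tests raised the values further. Same-numbered libraries deviated together little, if at all (r -0.05 to 0.06 over 11 pairs, own number best in 8 of 22 checks). The count of checks was not compared with chance, so it cannot settle whether the numbers mark pairs. With the replicate number as a block, Ctgf between the FAPs was 0.42 (adjusted p = 0.0649), and no other call of the 10 genes changed. Between the FAPs, 5 of the 10 genes were then called higher and 2 lower, beside 3352 and 3453 of all 15412 genes tested. With the compared groups alone, Ctgf (adjusted p = 0.0501) and Amotl2 (0.0725) lost their calls between the FAPs. The causes of these changes were not tested, also where an alternative has fewer libraries or genes. Counts in the pathway lists stayed within a factor of 1.5 in 758 cases, were smaller in 33 and larger in 7. Low counts limit the fold changes of genes with few reads in muscle FAPs, among them Ankrd1 (55 reads), Cnn1 (36), Wwc1 (30) and Actg2 (14).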

Other observations

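Mesothelial transcripts were present in lung FAPs and nearly absent from muscle FAPs: the 6 markers found summed to 431 to 1029.6 CPM in lung FAPs, 104 to 137 CPM in MEFs and 1.15 to 28.9 CPM in muscle FAPs. Krt19 made up most of the MEF sum, with a mean of 90.0 CPM in MEFs and 62.7 CPM in lung FAPs. Each other marker averaged 15.1 CPM or less in MEFs. The 6 tenocyte markers summed to 1225 to 2199 CPM in muscle FAPs, 97.6 to 186 CPM in lung FAPs and 45.2 to 52.7 CPM in MEFs. All 6 were called higher in muscle than in lung FAPs, where 23.2% of all genes were. Of these, Scx (0.73 against 0.17 CPM) and Mkx (2.93 against 0.93 CPM) were low in both FAPs, with overlapping libraries. Thbs4, which codes for a matrix thrombospondin of tendon and muscle, made up most of that sum in muscle FAPs, at 1188 CPM in muscle FAPs, 29.9 CPM in lung FAPs and 1.13 CPM in MEFs. Against MEFs, 4 of the 6 markers were called higher and 2 lower in muscle FAPs, where 36.1% and 37.3% of all genes were. The lower ones were Scx (0.73 CPM, against 6.51 CPM in MEFs) and Mkx (2.93 against 8.51 CPM). The part of the mesothelial and tenocyte transcripts in the CCN levels was not tested.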
